A study of Homo sapiens with 12 samples.

Results

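The ErbB family of growth factor receptors and their ligands was followed across 4 stably transfected lines whose labels name MDA-MB-231, a widely used triple-negative human breast cancer cell line. The set was a list of 9 genes by name, the ligands EREG, AREG, HBEGF, TGFA, BTC and NRG1 and the receptors EGFR, ERBB2 and ERBB3. Every probe set that the platform annotation gives to 1 of these genes alone was taken. That gave 8 of the 9 genes (5 ligands and 3 receptors) on 24 probe sets, of 11964 genes and 19064 single-gene probe sets in all. No probe set used here named AREG, so amphiregulin was not analysed here.

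The ErbB ligands are made as membrane-anchored precursors whose growth factor part is cut off by ADAM metalloproteases. EREG, AREG, HBEGF, TGFA and BTC bind EGFR, and some of them also bind ERBB4, while NRG1 (neuregulin) binds ERBB3 and ERBB4. Bound receptors pair and phosphorylate each other, with ERBB2, which has no known ligand of its own, as the preferred partner and ERBB3, whose own kinase activity is weak, as a strong route to PI3K. The ERK and PI3K cascades follow, and in breast cancer cells of the basal kind EGFR and its ligands are a common growth signal.

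Total RNA of these lines was hybridised to 12 Affymetrix expression arrays. The labels state that 3 biological replicates each carried a scramble shRNA (the control for knockdown), an shRNA against the histone demethylase LSD2, an eGFP/Flag vector (the control for overexpression) or an LSD2/eGFP/Flag vector. All 4 groups had been stably transfected and kept in G-418 to remove cells without the construct. The labels do not say whether a line was 1 clone or a pool, or whether the replicates of a group came from separate transfections, so p-values measure the spread between these arrays, which may be technical, and construct and line cannot be told apart. Which promoters drove the constructs is not stated in the labels, and no probe set used here named the gene of LSD2, so neither knockdown nor overexpression could be checked on it. The comparisons ask how the ErbB genes differed with the LSD2 shRNA against scramble shRNA and with the LSD2/eGFP/Flag vector against the eGFP/Flag vector.

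Values are the deposited log2 values of the brightest probe set of a gene unless another is named, so 1 unit is a doubling of signal. The 6 shRNA arrays and the 6 vector arrays seem to come from separate normalizations (medians from 6.65 to 6.72 and from 7.03 to 7.18), and no level was tested between them. Arrays of the same group correlated over genes at 0.996 to 0.998. Between scramble and LSD2 shRNA arrays r was 0.991 to 0.994, and between the LSD2/eGFP/Flag arrays and their eGFP/Flag controls only 0.904 to 0.908. The LSD2/eGFP/Flag arrays therefore stood apart as a whole group. Genes with an adjusted p below 0.05 count as called (limma, Benjamini-Hochberg over all genes). The shRNA comparison called 10.5% of genes, 598 higher and 662 lower, and the vector comparison called 57%, 3701 higher and 3123 lower. Setting the medians of the arrays equal turned these splits to 699 higher and 525 lower and to 2917 higher and 4300 lower, by moving the median difference of all genes from 0.01 to -0.12 log2 units in the vector comparison. The 1260 calls of the shRNA comparison fell to 752 without scramble replicate 1, to 832 without scramble replicate 2 and to 774 without LSD2 shRNA replicate 1.

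The promoters of EREG, HBEGF, TGFA and EGFR, on chromosomes 4, 5, 2 and 7, are shown because these 4 genes moved together in the vector comparison. Each fell there by at least 3 log2 units in its brightest probe set. Only EREG and TGFA of the 4 also rose with the LSD2 shRNA. The sequences are RefSeq windows of GRCh38.p14, from 250 bases before to 50 after a gene's start, 5′ to 3′ on the gene's strand, and 6 of the 8 measured genes had such a window. NRG1, which fell by 7.83 in the vector comparison and rose by 0.30 with the LSD2 shRNA, had no window, nor had ERBB3. Capitals mark matches on either strand to the motifs searched. The GC box was spelled GGGCGG. The TATA box was spelled TATAAA. The motif of TEAD factors was spelled GGAATG. The AP-1 motif, for FOS and JUN proteins, was spelled TGANTCA. The cyclic AMP response element, CRE, was spelled TGACGTCA.
EREG, chr4:74364895-74365194, plus strand: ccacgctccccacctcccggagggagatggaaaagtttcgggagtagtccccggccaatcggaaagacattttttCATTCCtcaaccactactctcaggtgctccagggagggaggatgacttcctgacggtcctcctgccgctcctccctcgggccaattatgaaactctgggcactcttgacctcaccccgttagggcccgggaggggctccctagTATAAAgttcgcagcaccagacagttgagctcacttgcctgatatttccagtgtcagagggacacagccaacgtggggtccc
HBEGF, chr5:140346554-140346853, minus strand: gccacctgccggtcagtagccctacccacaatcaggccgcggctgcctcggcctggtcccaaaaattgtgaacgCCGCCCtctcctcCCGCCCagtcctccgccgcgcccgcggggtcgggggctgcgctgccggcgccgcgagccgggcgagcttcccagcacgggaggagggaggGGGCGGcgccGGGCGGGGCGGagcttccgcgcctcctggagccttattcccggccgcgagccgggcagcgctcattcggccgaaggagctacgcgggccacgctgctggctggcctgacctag
TGFA, chr2:70553777-70554076, minus strand: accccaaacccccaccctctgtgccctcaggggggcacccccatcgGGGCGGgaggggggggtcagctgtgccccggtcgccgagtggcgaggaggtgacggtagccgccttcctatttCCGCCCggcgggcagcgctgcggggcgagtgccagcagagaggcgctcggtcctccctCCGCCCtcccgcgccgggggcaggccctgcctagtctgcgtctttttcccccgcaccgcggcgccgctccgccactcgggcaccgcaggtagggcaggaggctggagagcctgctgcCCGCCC
EGFR, chr7:55018767-55019066, plus strand: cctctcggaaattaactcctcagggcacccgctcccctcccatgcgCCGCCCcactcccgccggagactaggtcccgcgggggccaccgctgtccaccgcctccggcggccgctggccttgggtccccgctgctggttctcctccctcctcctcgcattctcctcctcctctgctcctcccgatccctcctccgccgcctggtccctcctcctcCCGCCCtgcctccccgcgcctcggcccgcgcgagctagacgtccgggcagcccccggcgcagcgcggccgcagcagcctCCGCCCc

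The EREG window differed from the other 3 printed windows in its letters. It held 1 TATA box and 1 TEAD match and no GC box, at 57.7% G and C, whereas the printed windows of HBEGF, TGFA and EGFR held 5, 4 and 3 GC boxes and no TATA box, at 75.0%, 75.3% and 75.3% G and C. Neighbouring GC boxes of HBEGF share a base, and no match overlapped a match of another motif in these windows. Over 34943 windows of the same length, the median was 58.7% G and C, 44.9% held a GC box, 11.6% a TATA box, 14% a TEAD motif, 7.72% an AP-1 motif and 1.84% a CRE. The contrast did not hold for every window of these genes. A second TGFA window, chr2:70553397-70553696, held none of the 5 motifs, at 63.0% G and C. A second EGFR window, chr7:55109589-55109888, held 2 AP-1 matches, 2 TATA boxes and 1 TEAD match and no GC box at 42.0% G and C. A match says only that these letters stand in the window.

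With the LSD2 shRNA, 3 of the 5 measured ligands rose, EREG, TGFA and NRG1, and none of the 3 receptors was called. EREG rose by 1.63 ± 0.10 log2 units (SE of the fit, 3.09-fold), TGFA by 0.60 ± 0.16 (1.52-fold) and NRG1 by 0.30 ± 0.08 (1.23-fold). So 3 of 8 genes were called higher, beside 5% of all genes called higher, 5.53% called lower and 10.5% called in either direction. The median difference of the 8 genes was 0.06, and that of all genes was -0.01. In 4 of the 8 genes the arrays of the groups did not overlap, which held for 28.3% of all genes.

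EREG encodes epiregulin, a ligand of EGFR and ERBB4. Its log2 values were 8.41, 8.54 and 8.30 on the scramble arrays and 10.08, 10.13 and 9.93 on the LSD2 shRNA arrays. The lowest LSD2 shRNA array lay well above the highest scramble array. The adjusted p was 2.6e-06 (limma, Benjamini-Hochberg), and it stayed between 1.1e-05 and 5.3e-05 when each of the 6 arrays was left out in turn. EREG had the 13th highest difference of 11964 genes in this comparison, and 1 probe set measured it.

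TGFA encodes transforming growth factor alpha, a ligand of EGFR. Its scramble arrays stood at 7.41, 7.79 and 7.12 and its LSD2 shRNA arrays at 8.07, 8.10 and 7.95. The groups did not overlap, but the scramble arrays were spread over a wider range. The adjusted p of 0.0285 (limma, Benjamini-Hochberg) became 0.0526 when only the compared groups were fitted, and the call was lost when scramble replicate 1 (0.0922) or 3 (0.105) was left out, or replicate 1 (0.0953), 2 (0.0817) or 3 (0.0542) of the LSD2 shRNA group. Its other probe sets gave 0.29 ± 0.08, also called in the fit over all single-gene probe sets (adjusted p = 0.0372), and 0.07 ± 0.11, not called. With the mean of its probe sets TGFA was at 0.32 and still called (0.0224). Over all 24 probe sets of the 8 genes 4 rose, 0 fell and 20 were not called, beside 8.73% of all probe sets called, 3.93% higher and 4.79% lower.

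NRG1 encodes neuregulin 1, the ligand of ERBB3 and ERBB4 in this set. Its log2 values were 10.28, 10.23 and 10.34 on scramble arrays and 10.67, 10.68 and 10.41 on LSD2 shRNA arrays. The third LSD2 shRNA array lay close to the control arrays, though still above them. The adjusted p was 0.0330 (limma, Benjamini-Hochberg). The call was lost with the mean of all probe sets (0.17, adjusted p 0.0807), when only the compared groups were fitted (0.0723), and when an array was left out, for scramble replicates 1 (0.103), 2 (0.116) and 3 (0.0506) and for replicates 1 (0.135) and 2 (0.119) of the LSD2 shRNA group. Of its 6 probe sets 1 was called, and the 6 differences ran from -0.02 to 0.30.

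The ligands HBEGF and BTC and the receptors were not called in this comparison. HBEGF, heparin-binding EGF-like growth factor, was at 9.76, 9.87 and 9.77 on scramble arrays and at 9.75, 9.71 and 9.75 on LSD2 shRNA arrays. Its groups did not overlap, by a narrow gap, and the difference of -0.06 had a 95% interval from -0.27 to 0.15 log2 units. BTC, betacellulin, lay at 3.16 to 3.25 on scramble and at 3.19 to 3.30 on LSD2 shRNA arrays, among the lowest 4.40% of genes on each of these arrays. RMA values carry no detection calls, so such low values have no order.

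EGFR, the receptor that most of these ligands bind, was at 10.32, 10.05 and 9.85 on scramble arrays and at 9.56, 9.78 and 9.99 on LSD2 shRNA arrays. The groups overlapped, and the difference was -0.30 with a 95% interval from -0.66 to 0.06 (adjusted p = 0.326 by limma, Benjamini-Hochberg). With array weights it was -0.46 and called (0.0292). Another EGFR probe set was at -0.195 with groups that did not overlap, and was not called (adjusted p by limma 0.132). The 6 EGFR probe sets ran from -0.30 to 0.04, and none was called. ERBB2, the partner receptor, differed by -0.15 (95% interval -0.33 to 0.04) and ERBB3, the neuregulin receptor, by 0.07 (-0.46 to 0.59). The other ERBB2 probe set was at -0.26 with groups that did not overlap, and was not called (adjusted p by limma 0.175). ERBB3 had low signal, with means of 4.27 on scramble and 4.34 on LSD2 shRNA arrays. None of the 3 intervals of the brightest receptor probe sets reaches the size of the EREG difference.

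**Figure D1:**
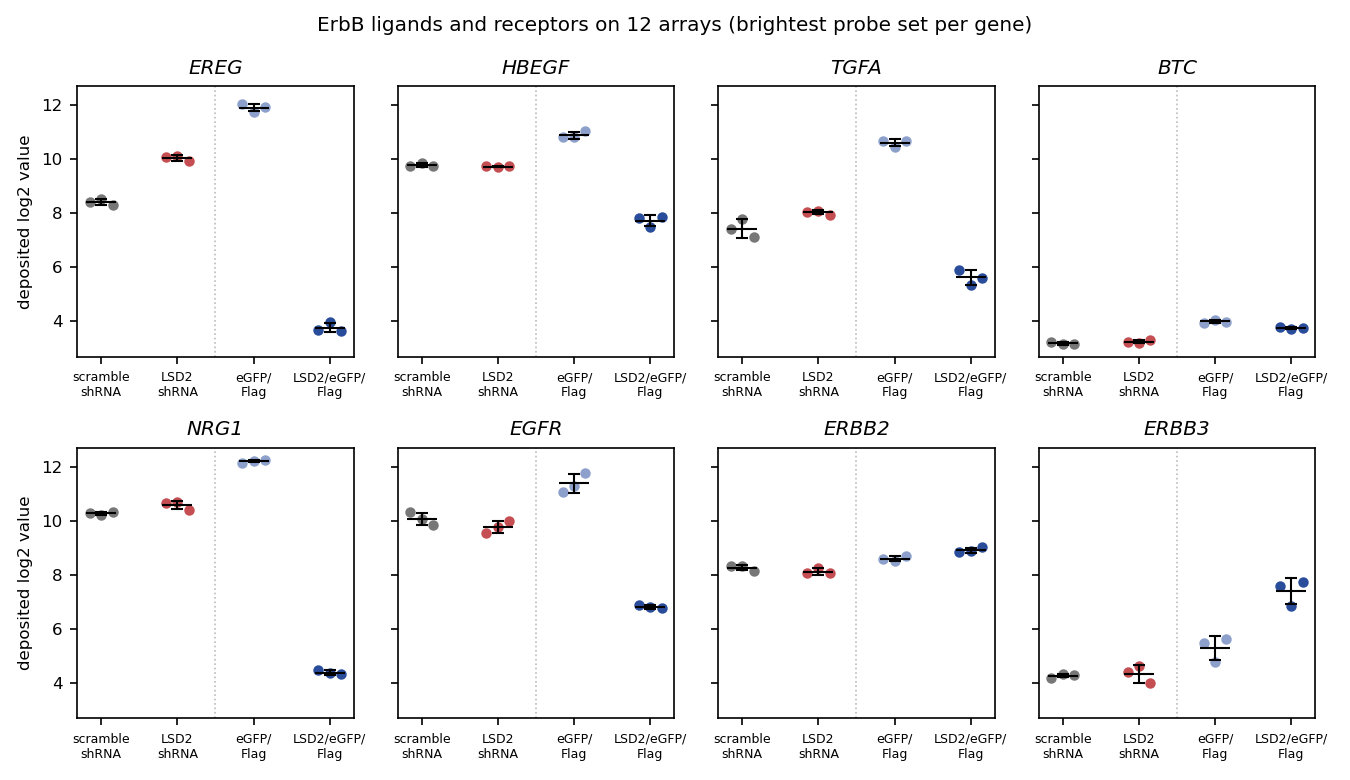
Deposited log2 values (vertical axis) of the 8 measured ErbB genes on the 12 arrays, brightest probe set per gene, with points for arrays and bars for the mean ± SD (n = 3 per group); the dotted line parts the shRNA arrays from the vector arrays, which appear to have been normalized separately. EREG steps up from scramble to LSD2 shRNA (8.42 to 10.05) and drops from eGFP/Flag to LSD2/eGFP/Flag (11.92 to 3.77), while ERBB3 goes up in the latter (5.29 to 7.40).

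In the vector comparison all 5 measured ligands and EGFR fell and ERBB2 and ERBB3 rose. EREG fell by 8.15 ± 0.10 log2 units, NRG1 fell by 7.83 ± 0.08, TGFA fell by 4.98 ± 0.16, EGFR fell by 4.56 ± 0.17 and HBEGF fell by 3.16 ± 0.10, while BTC fell by 0.25 ± 0.06. ERBB3 rose by 2.11 ± 0.24 and ERBB2 by 0.31 ± 0.08. The BTC fall lies between low values that have no order. The ERBB2 call was lost with equal medians and with the mean of all probe sets. All 8 genes were called, in a comparison that called 57% of all genes (30.9% higher and 26.1% lower), and in all 8 the groups did not overlap, as in 61.1% of all genes. The median difference of the 8 was -3.86, and that of all genes was 0.01. A fall of at least 3 log2 units, which 5 of the 8 showed, was found in 1.88% of all genes. Fewer cells of a type and less RNA per cell cannot be told apart in such bulk samples.

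The arrays labelled LSD2/eGFP/Flag were far lower than their controls in markers of the labelled line, beside every result of this comparison. Of 14 measured markers of the mesenchymal and basal state of MDA-MB-231, 14 fell and 0 rose. Their mean log2 value was 11.96 to 11.98 on the eGFP/Flag arrays and 6.92 to 7.04 on the LSD2/eGFP/Flag arrays. The hyaluronan receptor CD44 went from 12.41 to 3.99, the annexin ANXA1 from 13.25 to 4.65 and the receptor kinase AXL from 12.66 to 5.21 (-3.84 for CD44 and -4.96 for AXL with the mean of all probe sets), and vimentin, VIM, from 14.18 to 12.73. Of 7 kidney development markers 6 rose and 1 fell, with SALL1 from 3.70 to 8.75 and SIX2 from 7.03 to 9.99, and their mean went from 6.05-6.23 to 7.66-7.73. Of 12 neuronal markers 5 rose and 3 fell (mean 6.0-6.15 and 7.03-7.14), of 13 luminal markers 2 rose and 6 fell (7.78-7.85 and 6.94-6.95), of 12 fibroblast and endothelial markers 4 rose and 2 fell (5.40-5.53 and 5.59-5.85), and of 11 blood cell markers 0 rose and 1 fell (5.50-5.66 and 5.52-5.55). These counts stand beside 57% of all genes called in the vector comparison and 10.5% in the shRNA comparison. The median difference of the neuronal list was only 0.05. NEFM (6.74), NEFL (3.25) and INA (3.08) rose most in it, while TUBB3, SYT1 and MAP2 fell. In the shRNA comparison the same lists gave 2 and 1 of the 14 line markers (mean 11.46-11.56 on scramble and 11.53-11.59 on LSD2 shRNA arrays), 0 and 0 of the kidney, 1 and 0 of the neuronal, 3 and 0 of the luminal, 1 and 0 of the fibroblast and endothelial and 0 and 1 of the blood cell markers. The part of these marker differences in the ErbB results was not tested.

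EREG stood at 12.04, 11.77 and 11.94 on the eGFP/Flag arrays and at 3.70, 3.96 and 3.64 on the LSD2/eGFP/Flag arrays. It went from high signal on every control array to within the lowest 3.94% of genes on each LSD2/eGFP/Flag array, so the size of the fall (284-fold) is limited by the floor of the arrays. Only 4 genes of 11964 had a lower difference, among them the line markers ANXA1 (-8.60), CD44 (-8.42) and NT5E (-8.26). The adjusted p of EREG was 2.2e-15 (limma, Benjamini-Hochberg).

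NRG1 stood at 12.16, 12.23 and 12.25 on the eGFP/Flag arrays and at 4.47, 4.36 and 4.32 on the LSD2/eGFP/Flag arrays. It had the 7th lowest difference, and a fall of at least 7 log2 units was found in 0.117% of genes. Its probe sets did not give the same size. Of the 6, 5 fell (-7.83, -3.60, -2.05, -1.14 and -1.12) and 1 was at -0.01 and not called, in a fit that called 54.6% of all probe sets, 28.5% higher and 26.1% lower.

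TGFA went from 10.68, 10.46 and 10.70 to 5.91, 5.36 and 5.62, and EGFR from 11.09, 11.30 and 11.78 to 6.90, 6.80 and 6.77. Neither gene had arrays of the groups near each other. The other TGFA probe sets fell (-0.80 and -0.41). Of the 6 EGFR probe sets 5 fell (-4.56, -2.06, -0.48, -0.44 and -0.34) and 1 was at -0.0032 and not called. HBEGF went from 10.83, 10.82 and 11.05 to 7.83, 7.51 and 7.86, and its other probe sets fell (-3.17 and -0.22). With the mean of all probe sets the differences of NRG1, TGFA and EGFR were -2.63, -2.06 and -1.31 log2 units, all 3 still called.

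BTC, at 3.96, 4.07 and 3.98 on the eGFP/Flag and 3.78, 3.73 and 3.76 on the LSD2/eGFP/Flag arrays, was again among the lowest 4.70% of genes on each array. Its small fall (adjusted p = 0.00425 by limma, Benjamini-Hochberg) lies between values that have no order, and was -0.38 with the medians of the arrays set equal.

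ERBB3 rose from 5.49, 4.77 and 5.62 to 7.60, 6.86 and 7.75, with replicate 2 the lowest in each group. Its adjusted p was 4.7e-06 (limma, Benjamini-Hochberg), while its other probe set was at 0.04 and not called, and the mean of both probe sets gave 1.08. ERBB2 was at 8.60, 8.52 and 8.71 on eGFP/Flag and at 8.84, 8.89 and 9.02 on LSD2/eGFP/Flag arrays. The rise is small, its adjusted p of 0.00637 (limma, Benjamini-Hochberg) became 0.0694 with the medians of the arrays set equal (0.17) and 0.117 with the mean of all probe sets (0.17), cyclic loess gave 0.20, and its other probe set was at 0.02. Over all 24 probe sets 18 fell, 2 rose and 4 were not called, beside 54.6% of all probe sets called, 26.1% lower and 28.5% higher.

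**Figure D2:**
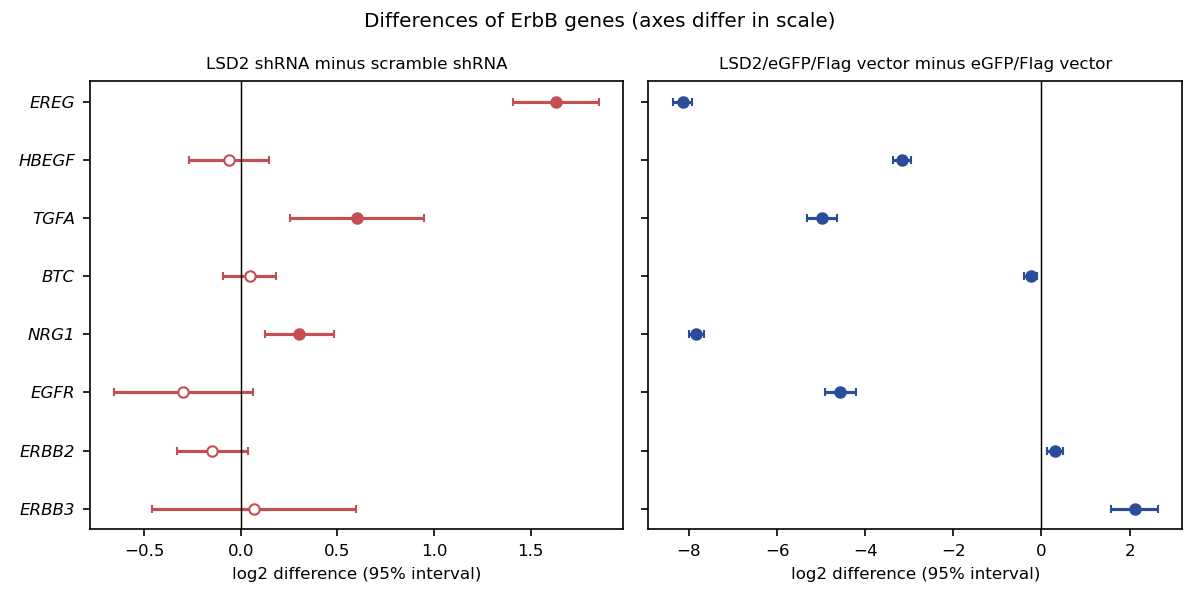
Log2 differences (horizontal axis) of the 8 genes with 95% intervals of the fit, for LSD2 shRNA minus scramble shRNA (left) and LSD2/eGFP/Flag minus eGFP/Flag (right); filled points were called, and the horizontal scales differ. EREG, TGFA and NRG1 lie above 0 on the left (1.63, 0.60 and 0.30) and far below it on the right (-8.15, -4.98 and -7.83).

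**Figure D3:**
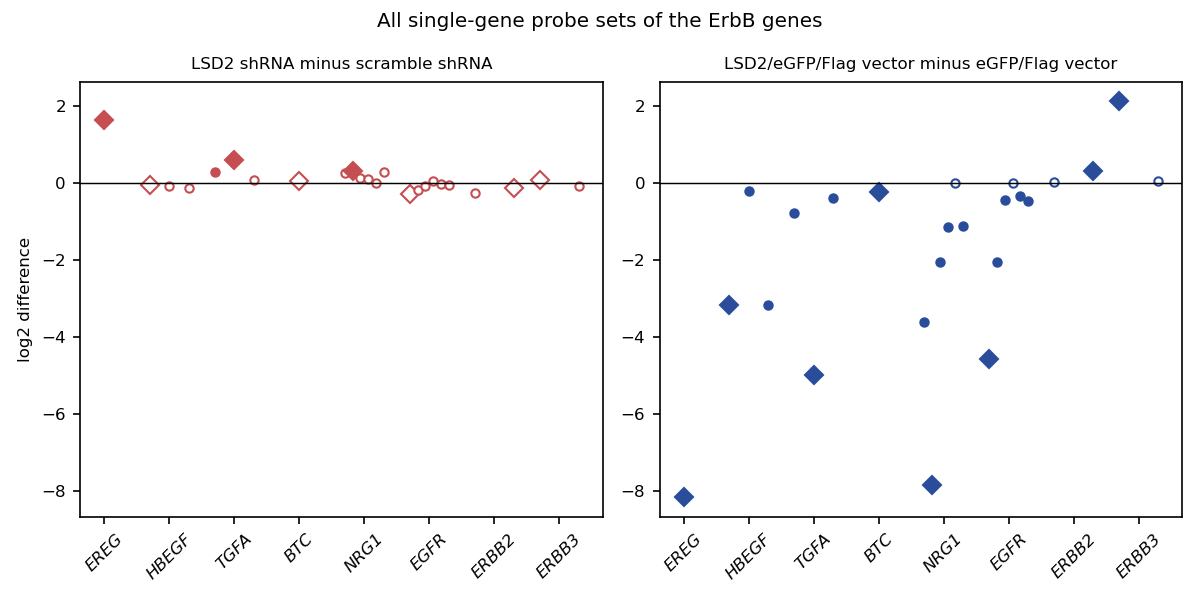
Log2 differences (vertical axis) of all 24 single-gene probe sets of the 8 genes in both comparisons; diamonds are the brightest probe set of a gene and filled symbols were called in the fit over all single-gene probe sets. For NRG1 and EGFR the probe sets spread from -7.83 to -0.01 and from -4.56 to -0.0032 in the vector comparison.

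The effects were set against each other in the same fit, as the vector difference minus the shRNA difference. All 8 genes differed between the comparisons, beside 50.4% of all genes (28% higher and 22.4% lower), from -9.78 ± 0.15 for EREG to 2.04 ± 0.34 for ERBB3. EREG, TGFA and NRG1 were called in opposite directions, 3 of the 8 genes. The share of all genes called in opposite directions was not counted, so this count is only a description. The arrays labelled LSD2/eGFP/Flag enter each of these tests, so the marker differences above move with them as well.

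Of the family genes outside the set, EGF, NRG2 and ERBB4 were measured, and none was called with the LSD2 shRNA (-0.05 ± 0.12, 0.10 ± 0.17 and 0.03 ± 0.21). Against the eGFP/Flag vector, EGF, the founding ligand, fell by 0.86 ± 0.12 from 5.34 to 4.48. ERBB4, the other neuregulin receptor, rose by 1.77 ± 0.21 from 5.30 to 7.07, in the same direction as ERBB3 (0.88 with the mean of its probe sets). NRG2 was at -0.08 ± 0.17.

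Genes for shedding and release of the ligands included risers and fallers. With the LSD2 shRNA 3 of 12 rose and 1 fell, beside 10.5% of all genes called, with a median of 0.00 beside -0.01 for all genes. The metalloprotease ADAM9 rose by 0.33 ± 0.06, CNIH1, a cornichon protein of the route by which ligand precursors leave the endoplasmic reticulum, by 0.39 ± 0.08, and the tetraspanin TSPAN12 by 0.57 ± 0.10. The tetraspanin TSPAN14 fell by 0.37 ± 0.09, a call lost when scramble replicate 1 (0.0592) or 2 (0.11) was left out, or replicate 1 (0.104) or 3 (0.0627) of the LSD2 shRNA group. In the vector comparison 2 rose and 7 fell, beside 57% of all genes called, with a median of -0.36 beside 0.01. The main ligand sheddase ADAM17 rose by 0.58 ± 0.07 while ADAM10, the sheddase of EGF and BTC, fell by 1.31 ± 0.07. ADAM19 (fell by 1.75), ADAM8 (fell by 1.67), ADAM15 (fell by 0.77) and ADAM9 (fell by 0.67) also went down, as did CNIH1 (fell by 0.40) and TSPAN12 (fell by 0.32), and TSPAN14 rose by 0.70 ± 0.09. The TSPAN12 call was lost when replicate 1 of the eGFP/Flag group (0.054) or replicate 3 of the LSD2/eGFP/Flag group (0.0827) was left out. With the mean of all probe sets ADAM19 was at -0.9965 and ADAM8 at -0.95, both still called.

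Among 29 receptor adaptors and kinase cascade genes 3 rose and 4 fell with the LSD2 shRNA, beside 10.5% of all genes called, with a median of -0.02. The adaptor NCK2 fell by 0.60 ± 0.07 and HRAS, a RAS GTPase, fell by 0.59 ± 0.09. The PI3K regulatory subunit PIK3R1 rose by 0.53 ± 0.10 (0.34 and not called with the mean of all probe sets, adjusted p by limma 0.0564), and the EGFR substrate EPS8 by 0.45 ± 0.09. With the LSD2/eGFP/Flag vector 9 rose and 14 fell, beside 57% of all genes called, with a median of -0.14. PIK3R3, another regulatory subunit of PI3K, rose by 2.04 ± 0.13, whereas the adaptors SHC3 (fell by 1.90) and GAB2 (fell by 1.45) and the RAS exchange factor SOS2 (fell by 1.64) went down. With the mean of all probe sets PIK3R3 was at 1.02 and SOS2 at -0.72, both still called.

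Of 18 genes for receptor turnover and inhibition 2 rose and 0 fell with the LSD2 shRNA, near the 10.5% of all genes called, with a median of 0.01. They were RNF41, a ubiquitin ligase for ERBB3 (0.38 ± 0.09), and the CBL-binding adaptor CD2AP (0.34 ± 0.10). The call of RNF41 was lost when scramble replicate 1 (0.0755) or 3 (0.0616) was left out, or replicate 2 of the LSD2 shRNA group (0.069). That of CD2AP was lost for scramble replicates 1 (0.0989), 2 (0.13) and 3 (0.0975) and for replicates 1 (0.123) and 3 (0.151) of the LSD2 shRNA group. With the LSD2/eGFP/Flag vector 7 rose and 5 fell, near the 57% of all genes called (30.9% higher and 26.1% lower), with a median of -0.11. The receptor inhibitor LRIG1 (1.67 ± 0.09) and the ubiquitin ligases STUB1 (1.48 ± 0.07) and CBLB (1.13 ± 0.12) rose, and the signalling inhibitor SOCS3 fell by 1.31 ± 0.22. With the mean of all probe sets CBLB was at 0.54 and SOCS3 at -0.50, both still called.

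Of the transcripts known as outputs of ERK signalling, a minority rose with the LSD2 shRNA and most fell in the vector comparison. With the LSD2 shRNA 5 of 18 rose and 0 fell, beside 5% of all genes called higher, with a median of 0.27 beside -0.01, among them the phosphatases DUSP6 (1.00 ± 0.24), DUSP5 (0.85 ± 0.13) and DUSP7 (0.80 ± 0.10) and the feedback inhibitor SPRY2 (0.86 ± 0.12). DUSP6 lost its call when only the compared groups were fitted (0.0626) and when scramble replicate 1 (0.0623) or 3 (0.074) was left out, or replicate 1 (0.088) or 2 (0.0762) of the LSD2 shRNA group. In the vector comparison 0 rose and 15 fell, beside 26.1% of all genes called lower, with a median of -2.93 beside 0.01, led by DUSP6 (fell by 7.61), PHLDA1 (fell by 6.98), DUSP4 (fell by 6.86) and the ETS factor ETV1 (fell by 5.84). With the mean of all probe sets DUSP7 was at 0.52 in the shRNA and ETV1 at -2.31 in the vector comparison, both still called. ERK activity itself was not measured.

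**Figure D4:**
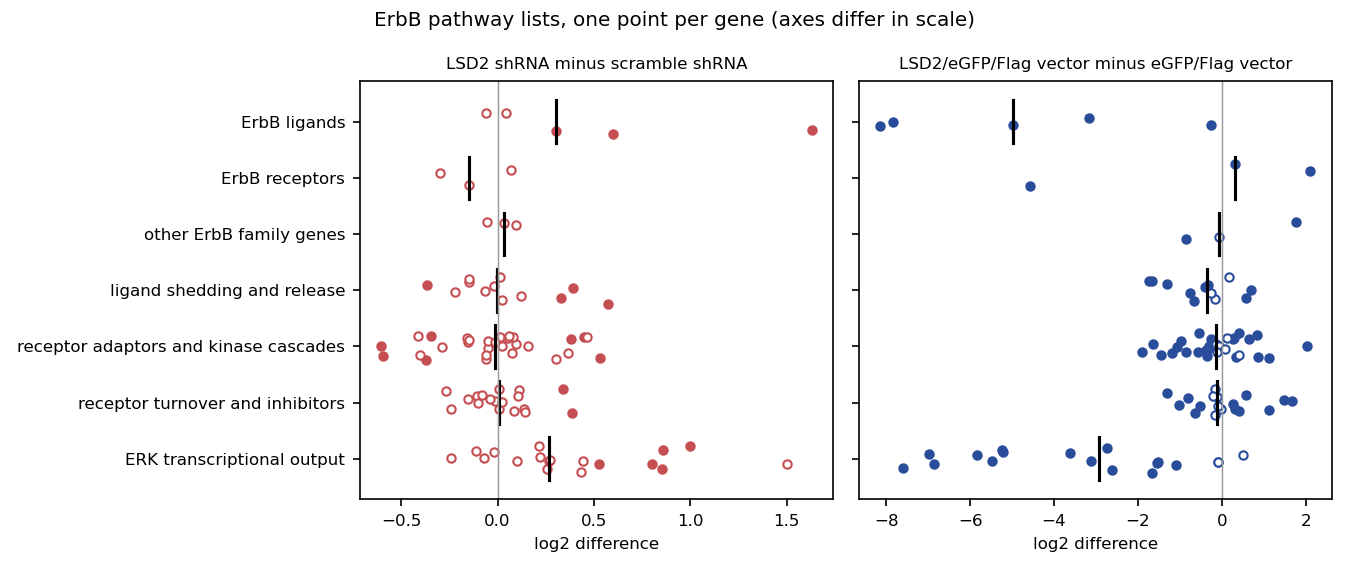
Log2 differences (horizontal axis) of the measured genes of 7 ErbB pathway lists, a point per gene, filled where called, with a black bar at the median of a list; the horizontal scales differ and the vertical scatter within a list has no meaning. The ligands and the ERK outputs lie to the right with the LSD2 shRNA (medians 0.30 and 0.27) and to the left in the vector comparison (medians -4.98 and -2.93), with the other lists nearer to 0.

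EREG, AREG and BTC lie next to each other on chromosome 4 in the RefSeq gene table, with AREG in the middle. Of the 4 nearest measured genes on each side of this block, 0 of the 8 were called with the LSD2 shRNA, in which 10.5% of all genes were called. In the vector comparison, with 57% of all genes called, 1 of the 8 rose and 2 fell. The chemokine gene CXCL2, upstream of EREG, fell by 1.38 ± 0.14 while MTHFD2L, between CXCL2 and EREG, rose by 0.66 ± 0.12. PARM1, beyond BTC, fell by 0.19 ± 0.08, a call lost when replicate 2 (0.0529) or 3 (0.18) of the eGFP/Flag group or replicate 1 (0.142) or 2 (0.139) of the LSD2/eGFP/Flag group was left out and also when only the compared groups were fitted (0.114), with an intensity trend (0.0669) and with array weights (0.106). Beside EGFR, 0 of 8 were called with the LSD2 shRNA and 3 rose and 2 fell in the vector comparison. Its nearest measured upstream neighbour COBL, an actin nucleator, rose by 2.65 ± 0.12 where EGFR fell, and VOPP1 fell by 0.60 ± 0.06. Around ERBB2, 0 of 8 were called with the LSD2 shRNA and 3 rose and 1 fell in the vector comparison. PGAP3 rose by 0.50 ± 0.11 and PSMD3 by 0.42 ± 0.08, and GRB7, an ErbB adaptor, fell by 0.37 ± 0.10. The counts beside EGFR and ERBB2 are near the share of all genes called in the vector comparison.

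**Figure D5:**
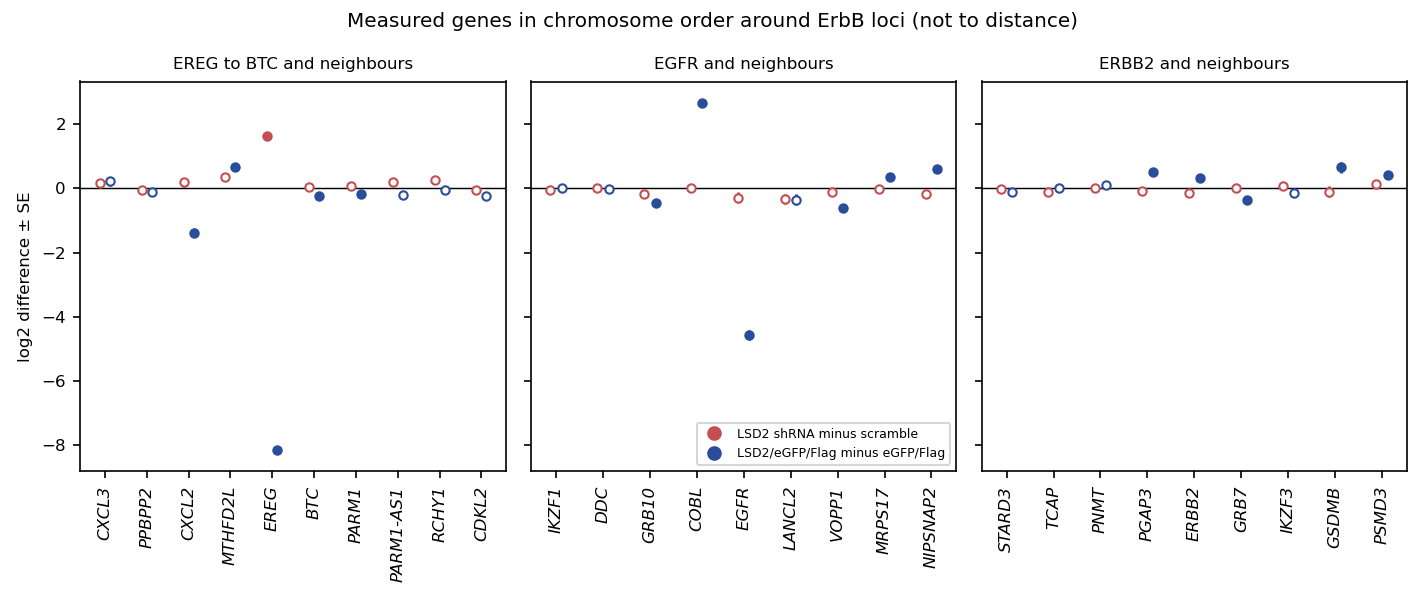
Log2 differences ± SE (vertical axis) of measured genes in chromosome order, not to distance, around the block from EREG to BTC, around EGFR and around ERBB2; filled points were called and most error bars are smaller than the symbols. EREG and EGFR stand far below their neighbours in the vector comparison (-8.15 and -4.56), and among the genes shown EREG alone is called in the shRNA comparison.

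The genes most like EREG, NRG1 and EGFR were found by Pearson's r over the 12 arrays after the mean of each 6 arrays normalized together was subtracted. These r values are descriptions, since the arrays share groups and the large vector difference carries most of the spread. For EREG they were ACSL5, CCN3 and LPXN, each at 0.998, with shRNA differences of 0.91, 1.34 and 1.04 and vector differences of -5.93, -6.32 and -4.77. For NRG1 they were ANXA1, RIOX1 and TFPI2 (each 0.999), with shRNA differences of 0.09, 0.03 and 0.43 and vector differences of -8.60, -3.30 and -6.95. For EGFR they were EMP3, LGALS1 and HTR2C (0.995 each), with shRNA differences of -0.30, -0.17 and -0.07 and vector differences of -3.08, -3.89 and -3.16.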

How the data were processed

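The authors deposited log2 expression values for 22277 probe sets on 12 arrays, made with RMA per the submitters' processing notes. The labels name no software version. Control probe sets and those naming several or no genes were left out, symbols were updated by gene identifier from a RefSeq table (GRCh38.p14), and the brightest probe set stood for a gene. Differences were fitted with limma 3.58.1 in R 4.3.3 (lmFit with a mean for each of 4 groups, then eBayes, 8 residual and 4.82 prior degrees of freedom), two-sided, with Benjamini-Hochberg adjustment over all genes. A second such fit covered all single-gene probe sets. The procedure was checked on simulated data. RMA gives neither depth nor detection calls, and precision is limited by the number of arrays.

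The members and the pathway and marker lists were chosen with earlier results of these data known, so counts over lists are descriptions. Named genes were all members, up to 4 called genes per list and comparison with the largest differences whose groups did not overlap, every called gene for shedding, all measured family genes, up to 4 measured neighbours on each side of a locus, and the 3 genes most like EREG, NRG1 and EGFR. Neighbours and markers named are a selection of these. Alternatives were a replicate block, the compared groups alone, cyclic loess, equal medians, array weights, an intensity trend, the mean of a gene's probe sets, leaving out dim genes and leaving out each array.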

Additional observations from a re-analysis of the deposited data

Results flagged for a closer look

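For all 8 measured genes the effect in the vector comparison differed from that in the shRNA comparison by a test of the difference itself (limma, Benjamini-Hochberg over all genes, 50.4% of which were called). The difference, as vector minus shRNA effect in log2 units, was -9.78 for EREG (adjusted p = 4.1e-14), -8.13 for NRG1 (4.1e-14), -5.58 for TGFA (2.1e-10), -4.27 for EGFR (5.1e-09), -3.10 for HBEGF (4.7e-10), 2.04 for ERBB3 (0.000212), 0.46 for ERBB2 (0.00571) and -0.29 for BTC (0.0146). Every value contains the arrays labelled LSD2/eGFP/Flag, on which 14 of 14 markers of the labelled line were lower than on their controls, and the part of that in the difference was not tested. BTC was among the lowest 4.70% of genes on each array, so its difference lies between values that have no order. Groups of 3 arrays are too small for a search for single outlying arrays.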

How the results depend on the processing

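The count of genes called with the LSD2 shRNA rose from 1260 to 2352 with array weights and ran from 752 to 1022 when an array was left out, and the ErbB genes among them went from 3 to 1 when only the compared groups were fitted and to 1 to 2 when an array was left out, EREG being called in each. Deviations of same-numbered arrays correlated at 0.02, 0.508 and 0.446 in the shRNA groups and at -0.142, 0.175 and 0.182 in the vector groups. Those of differently numbered arrays ran from -0.482 to 0.072 in the shRNA groups and from -0.243 to 0.101 in the vector groups. These values do not settle whether replicate numbers pair the arrays, and the main fit used no pairing. With a replicate block 1640 and 6963 genes were called, 2 and 8 of them ErbB genes, and NRG1 lost its shRNA call (adjusted p 0.0566). Over the 8 genes and all alternatives, 95 shRNA values stayed on their side of the threshold, 14 lost their call and 1 gained one, 108 vector values stayed and 2 lost their call, and all 150 differences between the effects stayed called. Leaving out the lowest 0.25 of genes by mean signal left 6 of the 8 genes, all called in the vector comparison. Low signal limits BTC throughout, ERBB3 on the shRNA arrays, and EREG and NRG1 on the LSD2/eGFP/Flag arrays. The median percentile of ERBB3 was 11.3 on scramble and 12.9 on LSD2 shRNA arrays.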

Other observations

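The place of a gene among the 11964 genes of its own array gives a level within that array, and it was not tested. The median percentile of EREG was 65.7 on scramble, 86.3 on LSD2 shRNA, 93.5 on eGFP/Flag and 1.92 on LSD2/eGFP/Flag arrays. TGFA stood at 52.0, 61.3, 82.3 and 24.2 in the same order, and NRG1 at 88.3, 91.2, 95.3 and 7.99. HBEGF held a steadier place, at 83.1, 82.6 and 83.9 on the arrays of the first 3 groups and at 48.4 on the LSD2/eGFP/Flag arrays, and EGFR was at 86.1, 82.9, 88.7 and 39.0. ERBB2 stayed between 57.7 and 64.2 in all 4 groups, while ERBB3 went from 11.3 on scramble and 12.9 on LSD2 shRNA to 23.6 on eGFP/Flag and 46.1 on LSD2/eGFP/Flag arrays. For EREG, TGFA and NRG1 the eGFP/Flag control arrays thus stood above both shRNA groups, and the controls of the 2 comparisons did not share a starting level for these ligands.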
